A study of Homo sapiens with 22 samples.

Results

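The genes described are 5 cyclin genes, CCND1, CCNE1, CCNE2, CCNA2 and CCNB1, and CDK1, read through the ChIP-seq peak lists of the human prostate cancer cell line 22Rv1. A peak was taken as belonging to a gene where it overlapped the hg19 span of that gene widened by 5 kb on either side, and 128 of the 291055 peaks in 8 deposited lists met that rule. ChIP-seq recovers DNA bound by a protein with an antibody and sequences it, and a peak, called a region here, is a stretch where the authors' caller found more signal than background. The targets mapped were E2F3, a transcription factor, RNA polymerase II phosphorylated on serine 5 (Pol2S5p), and H3K27me3, a mark of Polycomb-silenced chromatin. All 3 were mapped in cells overexpressing the linker histone variant H1-10 (H1-10 OE) and in cells labelled Ctrl, while Pol2S5p was also mapped after an siRNA against E2F3 (siE2F3) and a control siRNA (siCtrl). The peak names of the siE2F3 and siCtrl lists carry H1-10 overexpression, which their sample labels do not give, so the H1-10 status of these cells was not settled. How H1-10 was overexpressed, whether 1 clone was used, and the siRNA dose and time are not given in the labels. With 1 library in each group, no difference could be set against the spread of replicates, and no test was made. The remaining 14 of 22 samples, 10 inputs and 4 libraries of H1-10 itself, were not analysed here.

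Cyclins are the regulatory subunits of the cyclin-dependent kinases. Cyclin D1 with CDK4 or CDK6 begins the phosphorylation of the RB protein in G1, which frees E2F factors. E2F factors then activate genes of S phase, among them those of the E-type cyclins, cyclin A2 and CDK1. Cyclin B1 binds CDK1 to drive entry into mitosis. Polymerase phosphorylated on serine 5 is the initiating and early elongating form, so it is usually densest near gene starts, and dividing tumour cells depend on this machinery.

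The DNA at the starts is shown for genes where E2F3 regions lie, since E2F factors read short GC-rich words there. RefSeq promoter windows (GRCh38.p14, 250 bases before to 50 bases after an annotated start, 5′ to 3′ on the strand of the gene) matched 4 of the 6 genes. They are chr19:29811741-29812040 for CCNE1, chr10:60778228-60778527 for a second listed start of CDK1, chr4:121823834-121824133, reverse strand, for CCNA2, and chr5:69166900-69167199 for CCNB1. Capitals mark exact matches on either strand to an E2F core, to CCAAT, the word bound by NF-Y, or to TTTGAA, the core of the cell cycle genes homology region (CHR) known from genes of late cell cycle. The E2F words searched were TTCCCGC and, with other inner bases, TTCGCGC as well as TTGCCGC as well as TTGGCGC on either strand. An E2F3 region lay at CCNE1 and CDK1 in both E2F3 lists, and at CCNA2 and CCNB1 in the Ctrl list.
CCNE1: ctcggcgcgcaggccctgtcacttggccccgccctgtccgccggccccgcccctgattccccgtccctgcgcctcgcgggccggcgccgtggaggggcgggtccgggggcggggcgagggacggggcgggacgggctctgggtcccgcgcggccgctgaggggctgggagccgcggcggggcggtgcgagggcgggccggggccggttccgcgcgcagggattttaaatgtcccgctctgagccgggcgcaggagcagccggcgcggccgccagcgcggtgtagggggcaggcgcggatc
CDK1: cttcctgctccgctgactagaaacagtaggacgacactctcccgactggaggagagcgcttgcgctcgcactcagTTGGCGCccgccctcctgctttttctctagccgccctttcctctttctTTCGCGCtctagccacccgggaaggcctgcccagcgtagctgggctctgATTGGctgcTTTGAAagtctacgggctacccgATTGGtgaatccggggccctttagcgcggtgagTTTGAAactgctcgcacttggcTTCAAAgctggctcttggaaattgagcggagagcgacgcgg
CCNA2: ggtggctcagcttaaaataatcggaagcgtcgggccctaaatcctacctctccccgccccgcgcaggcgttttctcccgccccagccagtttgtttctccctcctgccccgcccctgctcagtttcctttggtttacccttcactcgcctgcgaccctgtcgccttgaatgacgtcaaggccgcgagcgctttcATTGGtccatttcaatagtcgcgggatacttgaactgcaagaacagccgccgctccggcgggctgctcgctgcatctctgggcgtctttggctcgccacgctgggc
CCNB1: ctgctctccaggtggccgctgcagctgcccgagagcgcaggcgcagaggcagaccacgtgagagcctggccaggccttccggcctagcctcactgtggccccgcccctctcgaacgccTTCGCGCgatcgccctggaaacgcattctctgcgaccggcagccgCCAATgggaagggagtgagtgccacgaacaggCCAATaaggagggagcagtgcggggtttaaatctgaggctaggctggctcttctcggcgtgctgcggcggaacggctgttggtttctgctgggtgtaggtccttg

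The CDK1 window held 2 E2F cores, 175 and 127 bases upstream of that start, with 2 CCAAT words and 3 CHR words, of which 1 is read on the reverse strand. Another CDK1 start has the window chr10:60778081-60778380, which held the same E2F cores with 1 CCAAT word and 1 CHR word. Counted from that other start, the E2F cores lie 28 bases upstream and 20 bases downstream. The distance of the cores thus depends on the start chosen. The CCNB1 window held 1 E2F core, 132 bases upstream, and 2 CCAAT words. CCNA2 held 1 CCAAT word, read on the reverse strand, and CCNE1 held none of the words. CCNE1 was the richest in G and C, at 81.0%, against 65.3% in CCNB1, 61.0% in CCNA2, 59.3% and 47.7% in the printed and the other CDK1 window, and a median of 58.7% over all windows. Among 35116 RefSeq windows of 300 bases, 13.0% held an E2F core, 34.6% a CCAAT word and 15.2% a CHR word. A match is only a match of letters, and positions in these windows were not carried over to the hg19 regions below. The hg19 start used for CDK1 below was not matched to either CDK1 window. Summit distances at CDK1 therefore cannot be set against the E2F cores printed above. CCND1 and CCNE2 are named without a sequence.

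The lists differed in length, and the read depth behind them is unknown here. E2F3 had 4296 regions in H1-10 OE and 22988 in Ctrl, Pol2S5p had 40626 and 35493, and H3K27me3 had 18395 and 2540. The siE2F3 and siCtrl lists of Pol2S5p were about equally long, at 83067 and 83650 regions. Fold enrichment and -log10 p and q values are those of the authors' caller, used here only to rank regions within 1 list, and a percent rank is the share of that list with a higher -log10 p. A weaker rank in one list than in another of different length shows no change. Gene starts were taken as the first base of the span on its strand, and a start counted as occupied where a region lay within 1 kb of it.

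E2F3 lay at all 6 gene starts in Ctrl and at 2 of them, CCNE1 and CDK1, in H1-10 OE. The 6 spans with flanks held 2 E2F3 regions in H1-10 OE and 13 in Ctrl, of which CCND1 held 8 and each other gene 1. E2F3 regions covered 0.66 kb at these genes in H1-10 OE and 22.6 kb in Ctrl, a ratio of 0.0292, beside 0.125 over the whole lists. Without CCND1 the ratio was 0.101. Of the 13 Ctrl regions, 11 met no region of H1-10 OE. Over all Ctrl regions this held for 97.4% (95% Wilson interval 97.2 to 97.6, counting error only). Of the 13 regions 7 were in the strongest 10% of that list, and 5 of these met none in H1-10 OE, where the background was 83.1%. With 2 shared regions and 8 of the 13 at CCND1 alone, nothing particular to these genes is read from the counts. Both H1-10 OE regions overlapped a Ctrl region, while 85.9% of that list did not. That contrast rests on 2 regions and on the 1 bp rule, since with 50% reciprocal overlap both lacked a Ctrl partner.

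CDK1, the kinase of mitotic entry, had the highest ranked E2F3 region of the 6 genes in both lists. In H1-10 OE the region spanned chr10:62537960-62538235 with a fold enrichment of 3.82, and 36.1% of the list was stronger. In Ctrl it spanned chr10:62537780-62538878 with a fold enrichment of 69.2, and 0.892% of the list was stronger. The summits, the points of highest signal, lay 52 bp downstream of the start in H1-10 OE and 59 bp downstream in Ctrl, so both lists placed E2F3 at nearly the same point. Nothing follows from the difference in fold, since the lists were scaled on their own.

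CCNE1 encodes cyclin E1, which activates CDK2 at the G1/S transition, and it was the other gene with E2F3 in both lists. Its H1-10 OE region, chr19:30302450-30302833, had a fold enrichment of 3.04 with 56.6% of the list stronger. Its Ctrl region, chr19:30302146-30303633, had a fold enrichment of 54.1 with 1.56% of the list stronger. The summits lay 254 bp upstream of the start in H1-10 OE and 281 bp upstream in Ctrl. The H1-10 OE region lay wholly within the Ctrl region.

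The other 4 genes had E2F3 in Ctrl alone. CCNE2, whose product cyclin E2 is the second E-type cyclin, had a region of 2597 bp with a fold enrichment of 39.2, and 2.08% of the Ctrl list was stronger. CCNA2, encoding the cyclin A2 of S phase and G2, had 907 bp with a fold enrichment of 41.4 and 3.02% of the list stronger. CCNB1, encoding mitotic cyclin B1, had the weakest of the 6 start regions, of 458 bp, with a fold enrichment of 7.96 and 50.9% of the list stronger. The CCNA2 and CCNB1 summits lay 15 and 36 bp upstream of the start, and that of CCNE2 354 bp downstream. The nearest E2F3 region in H1-10 OE was 14.9 kb from the CCNA2 span, 339.6 kb from CCNB1, 1.00 Mb from CCNE2 and 1.86 Mb from CCND1.

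CCND1, the gene of the G1 cyclin D1, differed in form: E2F3 in Ctrl was spread along the gene and not limited to its start. Its 8 regions ran from 69450990 to 69471278 on chromosome 11 and covered 78.1% of the gene span, whereas at each of the other genes a single region lay at the start. The region at the start, chr11:69454738-69456200, had a fold enrichment of 22.8 with 8.84% of the list stronger. A pair of regions further in were stronger. One inside the gene, chr11:69459904-69463423, had a fold enrichment of 41.9, and one across the 3′ end, chr11:69467737-69471278, had 38.5. With 3520 and 3542 bp they stood 18th and 17th by width among all 22988 Ctrl regions. In H1-10 OE no E2F3 region lay at CCND1.

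**Figure D1:**
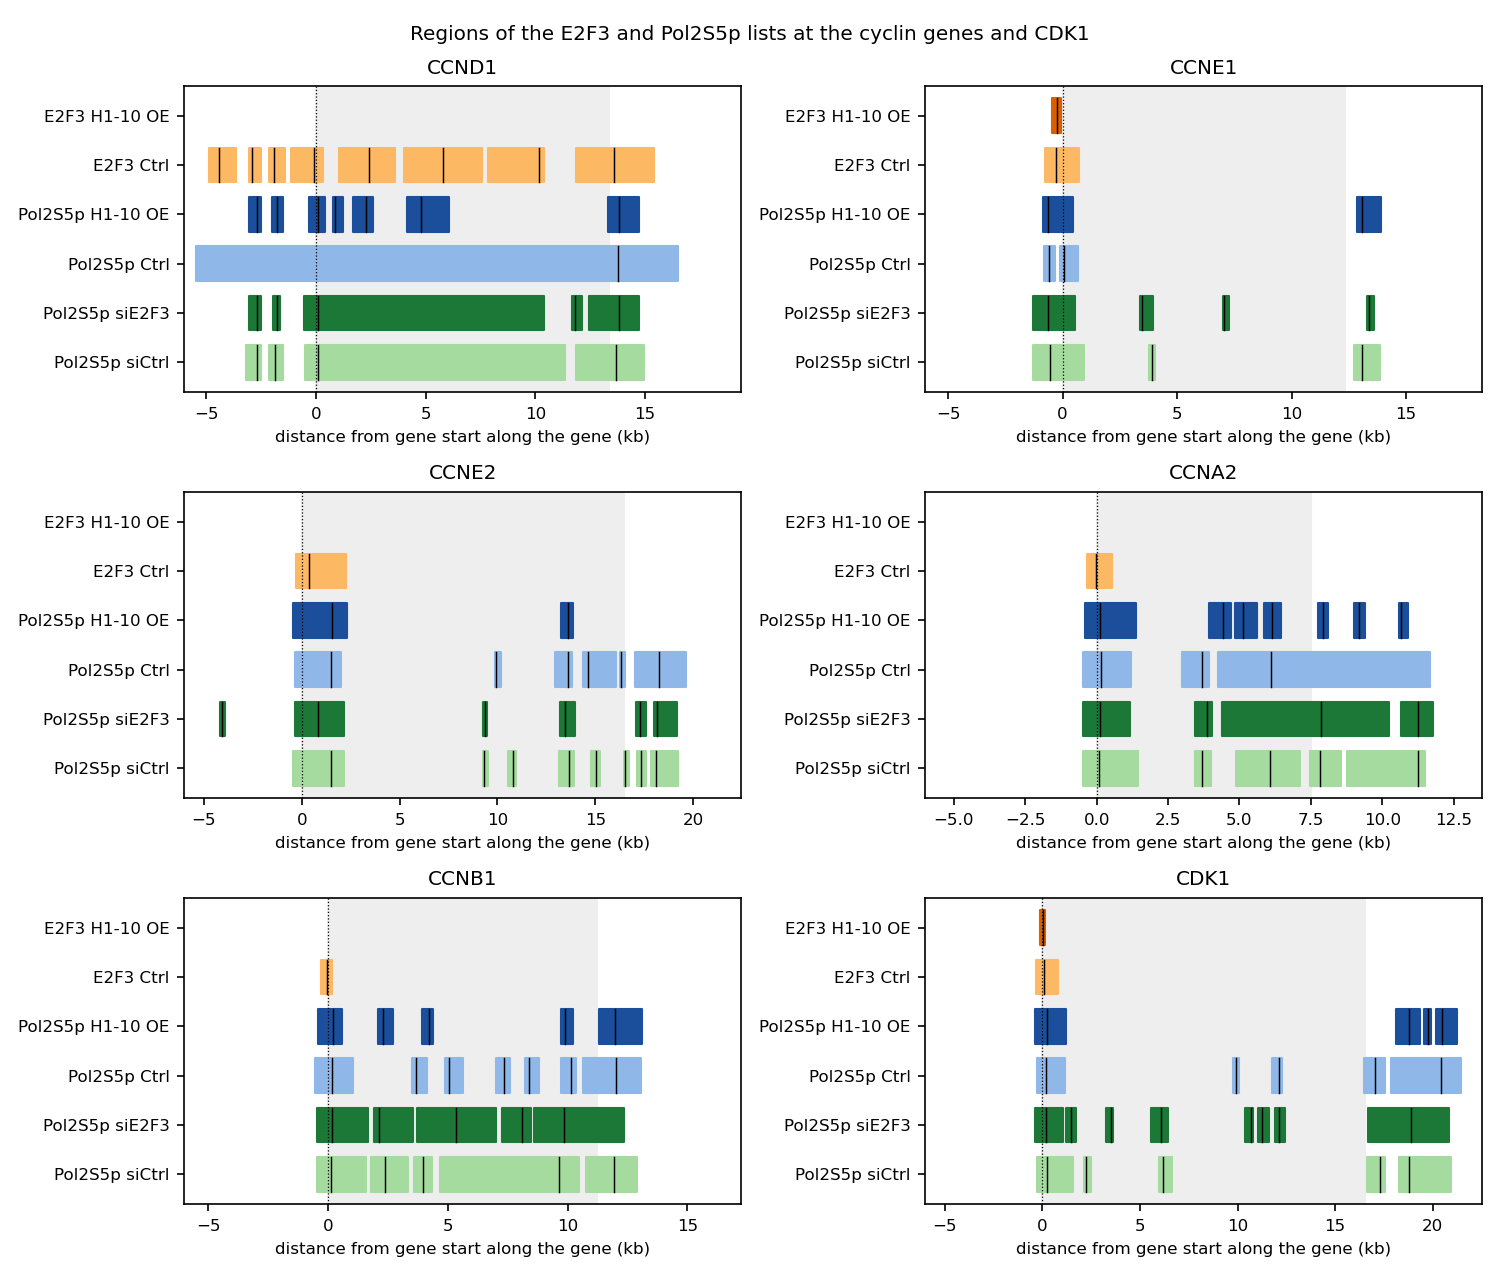
Regions of E2F3 and Pol2S5p along the 6 genes, 1 panel a gene, with the distance from the gene start in kb on the horizontal axis and 1 row a list; bars are regions, black ticks their summits and the grey bar the gene span. E2F3 in H1-10 OE appears at CCNE1 and CDK1 alone, and CCND1 is covered from end to end by 1 Pol2S5p region of 21971 bp in Ctrl.

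Pol2S5p lay at all 6 starts in each of the 4 lists. It therefore lay at the starts of CCND1, CCNE2, CCNA2 and CCNB1 in H1-10 OE, where no E2F3 region was listed. The genes held 27 Pol2S5p regions in H1-10 OE and 24 in Ctrl. They covered 25.8 kb in H1-10 OE and 54.9 kb in Ctrl, a ratio of 0.470, beside 0.909 over the whole lists. CCND1 gave the largest part of that gap, and without it the ratio was 0.579. Within the gene spans proper, coverage was lower in H1-10 OE than in Ctrl at all 6 genes. The shares of the span covered were 27.9% in H1-10 OE and 100% in Ctrl for CCND1, 46.6% and 72.2% for CCNA2, and 19.5% and 42.4% for CCNB1. They were 17.7% and 30.8% for CCNE2, 7.39% and 12.0% for CDK1, and 3.58% and 5.53% for CCNE1. With the flanks included, CCNE1 turned the other way, with a ratio of 1.85. No replicate shows how far such shares vary between libraries of 1 group.

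Of the 27 Pol2S5p regions in H1-10 OE, 2 met no Ctrl region by 1 bp or more, where 42.8% of the whole list did not. That count depends on the width of the Ctrl regions: 7 of the 27 lay at the 21971 bp region of CCND1 and 6 at a 7442 bp region of CCNA2. With 50% reciprocal overlap 20 of the 27 lacked a partner. The 2 regions unmatched under the 1 bp rule lay at CCNE1 and CCNB1. That of CCNE1 was chr19:30315755-30316805 just past its 3′ end, with a fold enrichment of 3.94. That of CCNB1 was chr5:68464941-68465557 inside the gene, with 4.49. Both were met by regions in siE2F3 and in siCtrl. Of the 24 Ctrl regions, 10 met none in H1-10 OE, beside 41.0% of the whole list. CCNE2 held 4 of them, CCNB1 3 and CDK1 3, and all lay inside the genes or past their 3′ ends, none at a start. The 3 Ctrl regions in the strongest 10% of their list all met a region of H1-10 OE, and 1.80% of that class did not.

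CCND1 carried the second strongest Pol2S5p region of the Ctrl list, ranked by -log10 p among 35493. That region, chr11:69450411-69472381, was 21971 bp long, the 27th widest of the list, and had a fold enrichment of 69.7. Its summit lay 13748 bp downstream of the start, beyond the 3′ end of the 13370 bp span. In H1-10 OE the same stretch held 7 separate regions, which covered 29.5% of it. The widest, inside the gene, had 1891 bp, and the one at the start, chr11:69455543-69456294, had a fold enrichment of 16.0 with its summit 78 bp downstream. The region near the 3′ end had its summit at 13788 bp in H1-10 OE, close to that of Ctrl. E2F3 regions of Ctrl covered 73.1% of the same stretch, so E2F3 and Pol2S5p were both broad over CCND1 in that group. Over the whole Pol2S5p lists, regions of at least 10 kb numbered 43 in H1-10 OE and 245 in Ctrl. The median width was 641 bp in H1-10 OE and 765 bp in Ctrl. Long regions were thus fewer across the H1-10 OE list and not at CCND1 alone.

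**Figure D2:**
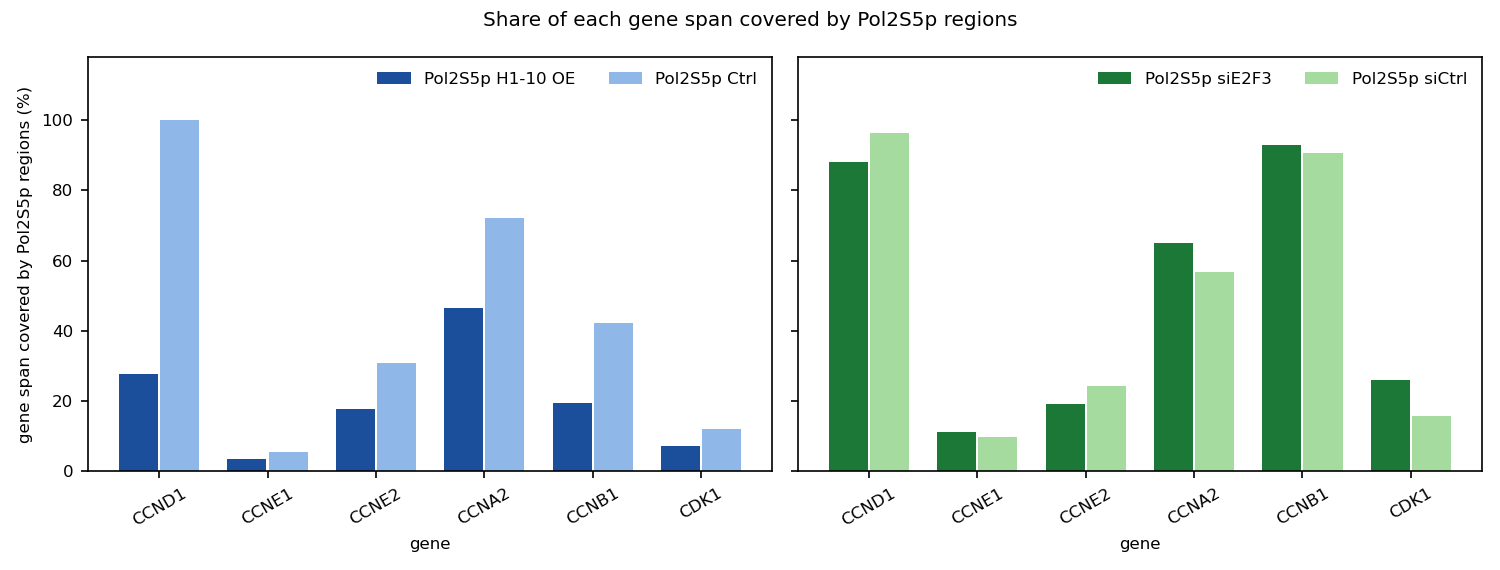
Share of each gene span covered by Pol2S5p regions, in percent, for the 6 genes; bars from 0 stand for 1 library each, so they carry no error. In the H1-10 OE and Ctrl pair every H1-10 OE bar is the lower, with CCND1 at 27.9% and 100%, while in the siE2F3 and siCtrl pair CCND1 stands at 88.0% and 96.5%.

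The E-type cyclin genes differed in where Pol2S5p was highest. At CCNE1 the strongest start region had its summit upstream of the start in all 4 lists, at 654 bp in H1-10 OE, 577 bp in Ctrl, 622 bp in siE2F3 and 550 bp in siCtrl. Ctrl alone split this stretch into 2 regions, of 469 and 801 bp, the second with its summit 59 bp downstream of the start. H1-10 OE had 1 region of 1299 bp, with 16.1% of its list stronger, whereas 43.0% of the Ctrl list was stronger than the first Ctrl region. At CCNE2 the summit lay 1543 bp downstream in H1-10 OE and 1495 bp in Ctrl, and 815 bp in siE2F3 and 1509 bp in siCtrl. The siE2F3 summit stands apart from the other 3 at this gene, but the region itself, of 2486 bp, had nearly the same ends as the 2569 bp region in siCtrl. In RefSeq NDUFAF6 overlaps CCNE2 on its upstream side and INTS8 overlaps it on its downstream side. E2F3 and Pol2S5p regions at either end of CCNE2, its start included, therefore cannot be given to 1 gene.

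At CCNA2, CCNB1 and CDK1 the Pol2S5p start region had its summit within 227 bp downstream of the start in every Pol2S5p list. This was not particular to them: CCND1 had its summit at 78 bp in H1-10 OE, 91 bp in siE2F3 and 86 bp in siCtrl. At CDK1 the summits lay at 218 bp in H1-10 OE, 198 bp in Ctrl, 193 bp in siE2F3 and 227 bp in siCtrl. At CCNA2 they lay at 127 bp in H1-10 OE, 146 bp in Ctrl, 133 bp in siE2F3 and 88 bp in siCtrl. At CCNB1 they lay at 218 bp in H1-10 OE, 157 bp in Ctrl, 172 bp in siE2F3 and 144 bp in siCtrl. The E2F3 summit of Ctrl stood upstream of all of these, by 139 bp at CDK1, 161 bp at CCNA2 and 193 bp at CCNB1 when set against Pol2S5p of the same group. CCNE1 had the opposite order for its strongest Pol2S5p start region, the E2F3 summit lying 296 bp downstream of that Pol2S5p summit. Its other Ctrl start region, of 801 bp, had its Pol2S5p summit 59 bp downstream of the start. Set against that summit, E2F3 lay upstream at CCNE1 too.

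**Figure D3:**
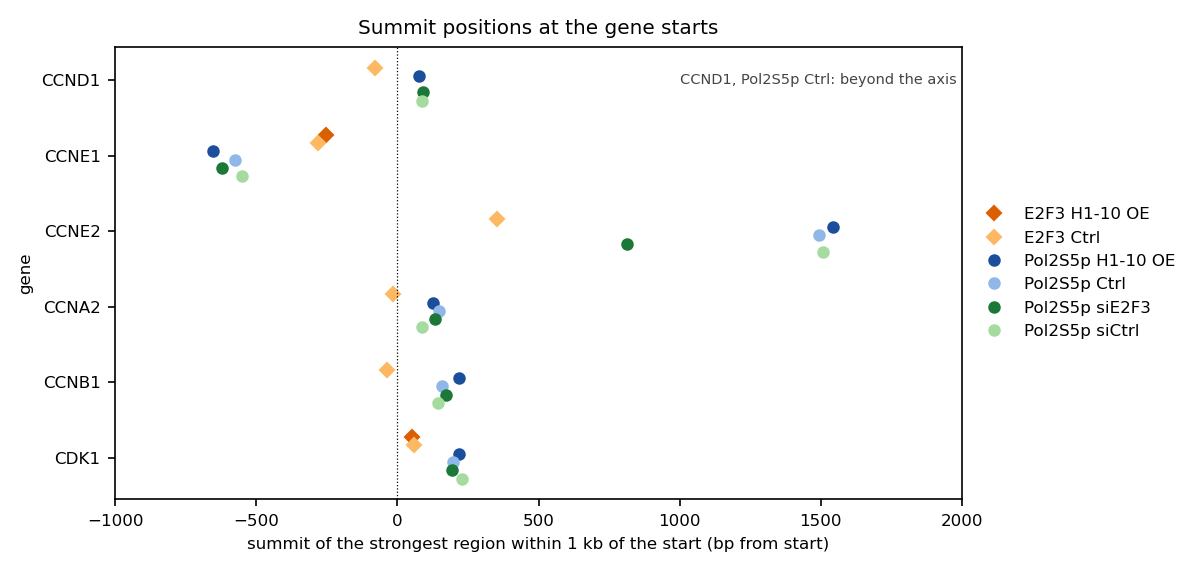
Position of the summit of the strongest region within 1 kb of each gene start, in bp from the start (dotted line), for E2F3 (diamonds) and Pol2S5p (circles), 1 point a library. E2F3 summits lie upstream of the Pol2S5p summits at every gene except CCNE1, and the Pol2S5p summit of Ctrl at CCND1, 13748 bp downstream, is beyond the axis.

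Regions inside the genes and past their 3′ ends made up most of the remaining members. CCNA2 held 7 Pol2S5p regions in H1-10 OE and 3 in Ctrl, yet those of Ctrl covered more: 1 Ctrl region of 7442 bp, chr4:122733416-122740857, overlapped 6 H1-10 OE regions of 320 to 764 bp. EXOSC9 overlaps the 3′ end of CCNA2 in RefSeq, so this stretch is shared between the genes. RefSeq also lists BBS7 within 5 kb upstream of CCNA2, without overlap, so regions reaching upstream of the CCNA2 start may not be its alone. CCNB1 held 5 regions in H1-10 OE and 7 in Ctrl, and both lists had one past its 3′ end, with the summit 11989 bp from the start in H1-10 OE and 12031 bp in Ctrl. CDK1 held 4 regions in H1-10 OE and 5 in Ctrl. Of those, 3 in H1-10 OE and 1 in Ctrl lay wholly past its 3′ end, and all 3 overlapped the Ctrl region chr10:62555959-62559543.

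E2F3 regions at these genes lay on Pol2S5p regions. Both E2F3 regions of H1-10 OE overlapped a Pol2S5p region of H1-10 OE, beside 30.2% of that list. All 13 E2F3 regions of Ctrl overlapped a Pol2S5p region of Ctrl, beside 68.0%. CCND1 weighs on that count, since its 8 E2F3 regions all lay in 1 Pol2S5p region. Against Pol2S5p of H1-10 OE, 11 of the 13 E2F3 regions of Ctrl overlapped, beside 64.6%. The pair that did not, chr11:69450990-69452209 and chr11:69463715-69466262, both lay at CCND1.

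Pol2S5p regions covered nearly the same length of these genes in siE2F3 and siCtrl. The genes held 32 regions in siE2F3 and 30 in siCtrl, covering 52.9 and 53.7 kb, a ratio of 0.984 beside 0.885 over the whole lists. Within the gene spans alone that ratio was 1.02, on the other side of 1. Of the siE2F3 regions 6 met none in siCtrl, beside 22.9% of the list. Of the siCtrl regions 4 met none in siE2F3, beside 30.6%. Each list had 5 of these regions in its strongest 10%, all met in the other, and the share of that class of siCtrl not met was 0.00%. No E2F3 list was made after the siRNA, so the loss of E2F3 itself could not be checked here.

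The genes differed in direction between siE2F3 and siCtrl. CDK1 had 8 regions in siE2F3 and 5 in siCtrl, and covered 26.0% of its span in siE2F3 and 15.8% in siCtrl. Between its start region and its 3′ end lay 6 regions in siE2F3 and 2 in siCtrl, with fold enrichments of 3.20 to 7.63 in siE2F3 and of 3.20 and 5.65 in siCtrl. CCNA2 stood at 65.2% of its span in siE2F3 and 56.8% in siCtrl, CCNB1 at 93.0% and 90.7%, and CCNE1 at 11.3% and 9.80%. With the flanks included, CCNB1 and CCNE1 turned the other way, with covered ratios of siE2F3 to siCtrl of 0.976 and 0.823. CCND1 and CCNE2 stood lower in siE2F3, at 88.0% and 96.5% for CCND1 and 19.2% and 24.4% for CCNE2. CCND1 again held the widest regions, 10912 bp in siE2F3 and 11834 bp in siCtrl, both from the start into the gene. Neither list had the single region over the whole gene that Ctrl had.

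The order of the genes by -log10 p of the strongest region within 1 kb of the start was the same in siE2F3 and siCtrl: CDK1, CCND1, CCNA2, CCNB1, CCNE2 and CCNE1. In H1-10 OE it was CDK1, CCNA2, CCNE2, then CCNB1 and CCNE1 with equal values, then CCND1. In Ctrl it was CCND1, CCNA2, CDK1, CCNE2, CCNB1 and CCNE1. The place of CCND1 in Ctrl comes from the 21971 bp region, whose summit is 13748 bp from the start, and so says nothing of the start itself. In H1-10 OE the CCND1 value is that of the 752 bp region with its summit at 78 bp, with 16.6% of the list stronger. CCNA2 had 7.35% of the H1-10 OE list and 1.60% of the Ctrl list stronger, CDK1 2.08% and 4.54%. CCNE2 had 8.84% and 16.6%, and CCNB1 16.1% and 18.3%. In siE2F3 and siCtrl the start regions lay between 0.678% and 13.9% and between 0.472% and 11.4%.

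**Figure D4:**
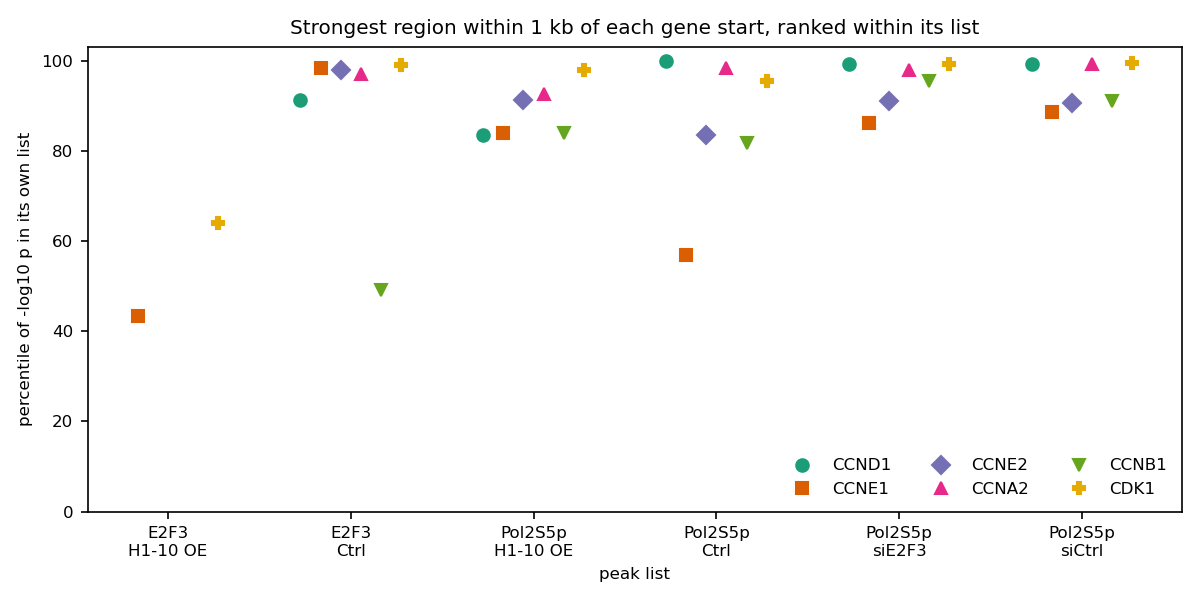
Percentile by -log10 p, within its own list, of the strongest Pol2S5p or E2F3 region within 1 kb of each gene start, 1 point a library; 100 is the strongest region of the list, and the CCND1 point of Pol2S5p in Ctrl is the 21971 bp region with its summit past the gene. CCNB1 is lowest of the 6 for E2F3 in Ctrl (49.1), and CCNE1 lowest for Pol2S5p in Ctrl (57.0).

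Across the pairs, all 27 Pol2S5p regions of H1-10 OE were met by a region of siCtrl, beside 88.6% of the list, and 20 of the 30 of siCtrl by one of H1-10 OE, beside 31.8%. These lists carry different folder labels in their peak names, and a difference in the authors' processing between them was not tested. The same holds for each comparison above of E2F3 regions with Pol2S5p regions of H1-10 OE or Ctrl.

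H3K27me3 marked none of the 6 genes in either list. In H1-10 OE 0 of 18395 regions and in Ctrl 0 of 2540 lay within 5 kb of a span, so none entered the comparison, in which 97.2% of all H1-10 OE regions and 77.6% of all Ctrl regions met none of the other list. The nearest region was at CCND1, 161.8 kb away in H1-10 OE and 68.3 kb away in Ctrl. CCNE1 followed at 218.0 kb in H1-10 OE and 284.8 kb in Ctrl, and CCNE2 at 0.497 Mb and 30.4 Mb. For CDK1 the distances were 1.31 Mb in H1-10 OE and 2.02 Mb in Ctrl, for CCNB1 4.62 and 14.3 Mb, and for CCNA2 21.9 and 60.6 Mb. Distances shrink as a list grows longer, so they are given as positions only.

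The 5 kb rule left few regions near its edge. Just inside lay regions of siE2F3 at CCNE2, 3.93 kb from the span with a fold enrichment of 3.38, and of E2F3 in Ctrl at CCND1, 3.66 kb from the span with 23.9. Just outside, CCNE1 had regions of siCtrl at 5.01 kb with 3.05 and of siE2F3 at 5.32 kb with 5.91. CCNA2 had regions of siE2F3 at 5.30 kb with 7.74 and of siCtrl at 5.42 kb with 9.15.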

How the data were processed

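Libraries were made from 22Rv1 chromatin crosslinked with formaldehyde and sheared by sonication, per the labels' protocols. FastQC, fastp and Bowtie were used and reads were placed on hg19, per the submitters' processing notes. Not given in the sources used here are tool versions, the peak caller, its threshold and which input it used. The authors called peaks for each library and pooled none. The columns deposited with each peak are a score, which was not used, a fold enrichment at the summit, and −log10 p and −log10 q values. A summit is deposited as an offset in base pairs from the left end. Read depth is unknown, and list lengths were left unscaled. Peak names share 1 folder label in the H3K27me3 lists and the H1-10 OE and Ctrl lists of Pol2S5p, and another in the E2F3, siE2F3 and siCtrl lists.

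Peaks that overlapped or touched would have been joined, which changed no list. Regions were shared where they overlapped by at least 1 bp, and covered length was summed over the spans with flanks. Strength was ranked by −log10 p in 10 classes. Shares carry 95% Wilson intervals where given. Groups came from the sample labels. The rule for named genes was to describe all 6 in every comparison, by the region at the start and the strongest one. Members and lists were chosen with earlier results of these data known. No hg19 gene annotation was used here. The planned list of other cell cycle genes and the prostate cell markers were therefore not counted. Strands came from the RefSeq promoter table, and for CCNE2 and CCND1 from general knowledge. Alternatives tried were flanks of 0 and 20 kb, 50% reciprocal overlap, merging of peaks within 1 kb, lists cut to the same number of strongest peaks, and a −log10 q minimum of 5. The overlap code was tested on simulated data. The tools were matplotlib 3.10.9, scipy 1.17.1, pandas 2.3.3 and numpy 2.4.6 under Python 3.11.15.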

Additional observations from a re-analysis of the deposited data

How the results depend on the processing

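Of 130 recomputed values for 21 results, 109 stayed close to the reported value, 20 moved and 1 changed side. The 109 include the H3K27me3 counts, which were 0 under every setting since no region lay near these genes. A value was counted as close where it was equal, or where the larger of the 2 was at most 50% above the smaller. Values counted as close could therefore shift clearly. With 20 kb flanks the E2F3 covered ratio went from 0.0292 to 0.0438, and unmatched E2F3 regions of Ctrl from 11 to 14. With equal numbers of the strongest peaks, for example, E2F3 starts in Ctrl went from 6 to 5. With 50% reciprocal overlap, Pol2S5p regions without a partner numbered 20 in H1-10 OE and 17 in Ctrl, and 16 in siE2F3 and 14 in siCtrl. Under it both E2F3 regions of H1-10 OE lacked a Ctrl partner (2), and E2F3 regions on Pol2S5p numbered 0 in H1-10 OE and 4 in Ctrl. With a −log10 q of at least 5, unmatched Pol2S5p regions numbered 0 in H1-10 OE and 3 in Ctrl, and 2 in siE2F3. With peaks within 1 kb merged, unmatched regions numbered 3 for Pol2S5p in Ctrl, 5 for E2F3 in Ctrl and 1 in siCtrl, and 7 E2F3 regions of Ctrl lay on Pol2S5p. With equal numbers of the strongest peaks, 6 E2F3 regions of Ctrl were unmatched and 8 lay on Pol2S5p. With the gene spans alone, unmatched Pol2S5p regions of H1-10 OE numbered 1, E2F3 regions of H1-10 OE on Pol2S5p numbered 1, and the E2F3 covered ratio was 0.00981. With 20 kb flanks, unmatched Pol2S5p regions of H1-10 OE numbered 5. The covered ratio of siE2F3 to siCtrl was 1.02 with the spans alone, on the other side of 1 from the reported 0.984. The cause was not tested. The H3K27me3 ratio could not be given, since both lists covered 0 bp at these genes. No paired analysis was possible because each group had 1 library. Read depth is unknown, so a missing region cannot be read as absence of the protein.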

Other observations

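CCND1 had a summit near its 3′ end in all 5 lists that held regions there, a pattern chosen after its values were seen. The Pol2S5p summits lay 13788 bp from the start in H1-10 OE, 13748 bp in Ctrl, 13821 bp in siE2F3 and 13692 bp in siCtrl, and the E2F3 summit of Ctrl lay at 13583 bp. These 5 summits fell within 238 bp of each other, just past the end of the 13370 bp span. CCNB1 had Pol2S5p summits past its 3′ end at 11989 bp in H1-10 OE, 12031 bp in Ctrl and 11924 bp in siCtrl, while the region of siE2F3 there had its summit inside the gene, at 9839 bp. RefSeq lists LOC124902704 within 5 kb downstream of CCND1 and LOC112267932 within 5 kb downstream of CCNB1. Summits past these 3′ ends therefore cannot be given to 1 gene.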
